A study of Homo sapiens with 6 samples.

Results

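Fatty acid synthesis, elongation and desaturation enzymes were followed in H460 cells, a human non-small-cell lung cancer line, after knockdown of the long intergenic non-coding RNA *HKlincR1* (AC093323.3). The 10 genes chosen by symbol were ACSS2, ACLY, ACACA, FASN, SCD, ELOVL6, ELOVL5, FADS1, FADS2 and ACSL3. Of these, 9 were matched to a row of the 57773 genes in the deposited table by their GENCODE v44 identifier, and all 9 were among the 15451 genes tested. The identifier of ACACA, the acetyl-CoA carboxylase that makes malonyl-CoA, matched no row, and ACACA was not analysed here. In the siNT group, 3 libraries came from cells given a non-targeting siRNA. In the siHKlincR1 group, 3 libraries came from cells given 1 siRNA against *HKlincR1*, siHKlincR1_2. In both groups the siRNA was at 50 nM for 48 hours, no untransfected cells were sequenced, and the labels call the 3 replicates biological.

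Cells make fatty acids from acetyl-CoA in the cytosol. ACLY releases acetyl-CoA from citrate and ACSS2 makes it from acetate, acetyl-CoA carboxylase turns it into malonyl-CoA, and FASN joins these units into palmitate. ELOVL enzymes in the endoplasmic reticulum lengthen the chain, SCD and the FADS enzymes place double bonds in it, and ACSL enzymes couple free fatty acids to coenzyme A for use in membranes and storage lipids. Many lung cancers and other carcinomas express this pathway strongly, and the SREBP transcription factors are its best-known activators.

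*HKlincR1* was 3.62, 3.47 and 3.83 RPKM (reads per kilobase of gene model, scaled to the size of the library) in the siNT libraries and 0.563, 0.628 and 0.390 RPKM in the siHKlincR1 libraries. The mean fell by 85.5%, with a log2 fold change of -2.59 (limma with Benjamini-Hochberg adjustment, adjusted p = 0.00245), so every library fitted its label. The libraries held 24980280 to 30521000 reads. A gene was called changed where its p, adjusted across every gene tested, was under 0.05 and its fold exceeded 1.5. On this rule 55 genes, or 0.356% of those tested, were called lower and 1, or 0.00647%, was called higher. When the replicate number was added as a block, the counts were 125 (0.809%) and 79 (0.511%). The siHKlincR1 library of replicate 3 stood apart. Without it 314 genes, or 2.03%, were called lower and 204 were called higher, and results that rest on it are given both ways. The epithelial keratins KRT8, KRT18 and KRT19 summed, with 2 other epithelial markers, to between 148 and 170 RPKM in siNT and between 149 and 168 RPKM in siHKlincR1, but CDH1 was at or near 0 and EPCAM was at most 0.110 RPKM in any library. Of 6 markers of other cell types, 5 were matched, and they summed to between 1.17 and 1.34 RPKM in siNT and between 0.579 and 0.921 RPKM in siHKlincR1, most of it COL1A1. ADIPOQ was at 0 in all libraries. COL1A1, a fibroblast collagen, was lower in all 3 siHKlincR1 libraries, and its part in the results below was not tested. In bulk RNA, fewer cells of a type and less RNA per cell cannot be told apart.

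In siNT cells SCD, FASN and ACLY were the most abundant of the 9 enzymes. SCD was highest at 174 ± 7.97 RPKM (SD, n = 3), followed by FASN at 152 ± 2.76 and ACLY at 123 ± 5.07 RPKM. These 3 genes lay at or above the 97.7th percentile of the tested genes by their mean over all 6 libraries. ELOVL5 at 41.7 ± 0.242, ACSL3 at 32.0 ± 2.06 and FADS1 at 18.9 ± 1.05 RPKM came next. ELOVL6 at 8.95 ± 1.29 and ACSS2 at 8.60 ± 1.14 RPKM overlapped, and FADS2 was lowest at 1.12 ± 0.172 RPKM, at the 14.8th percentile. Apart from ELOVL6 and ACSS2, each gene was above the next in all 3 siNT libraries. Reads worked back for these genes ranged from 283 for FADS2 to 42620 for FASN in a single library.

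**Figure D1:**
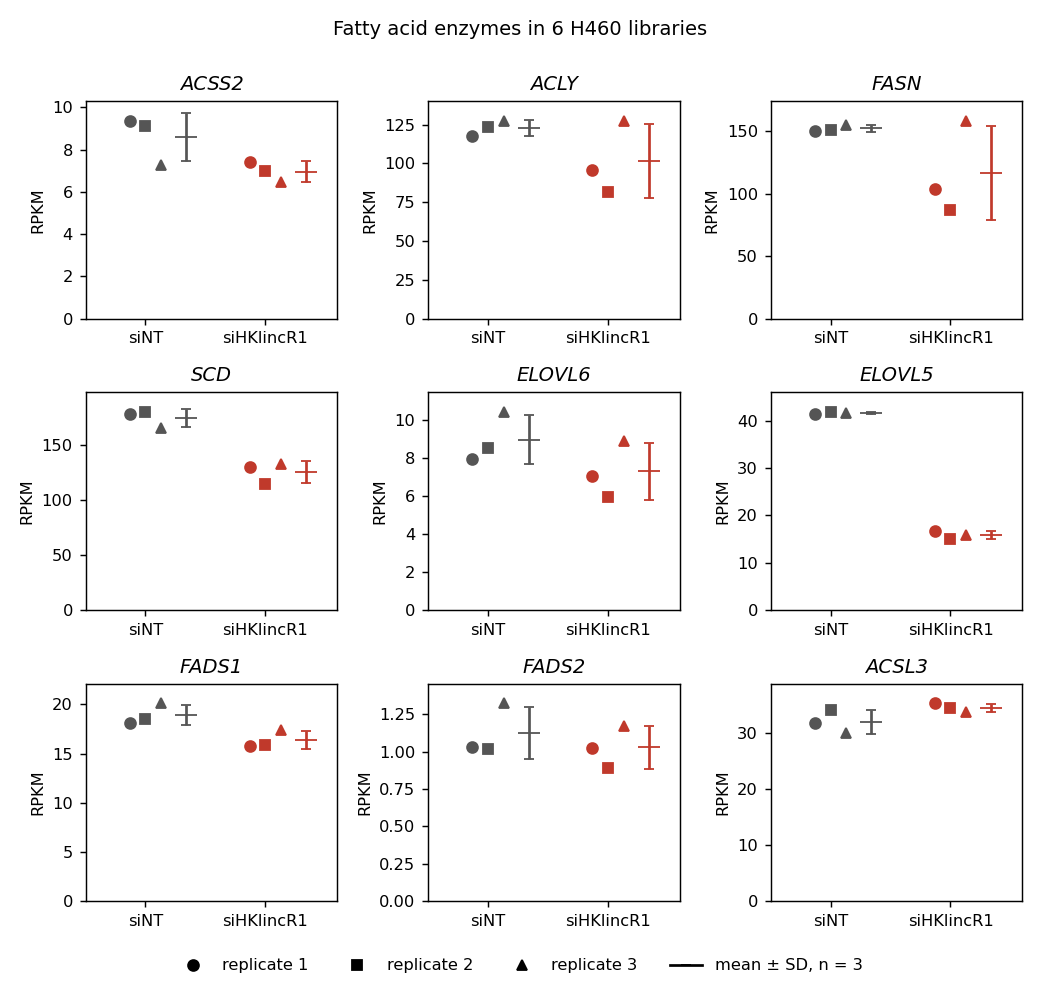
Expression of the 9 matched fatty acid enzymes in RPKM, with a separate linear axis from 0 for each gene. Points are single libraries, shaped by replicate number, in siNT (grey) and siHKlincR1 (red), and bars are mean ± SD (n = 3). ELOVL5 was 15 to 16.8 RPKM in siHKlincR1 against 41.4 to 41.9 in siNT, while the siHKlincR1 points of FASN and ACLY spread widely.

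The clearest difference was in ELOVL5, the elongase that lengthens polyunsaturated fatty acids. It was the 1 gene of the 9 that was called, and it fell. For most of the other enzymes the siHKlincR1 mean was lower too, by less, and no other passed the test. Of the 9 genes, 8 had a log2 fold change below 0 and 1 above, with a median of -0.30, beside 0.0011 over all tested genes. At an unadjusted p under 0.05, 4 were lower (ELOVL5, SCD, FADS1 and ACSS2), where 9.19% of all tested genes were, and 0 were higher, where 7.04% were. Every siHKlincR1 library lay below every siNT library for 3 of the 9 (ELOVL5, SCD and FADS1), beside 11.9% of all tested genes. For 0 of the 9 did every siHKlincR1 library lie above, beside 10.1%.

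**Figure D2:**
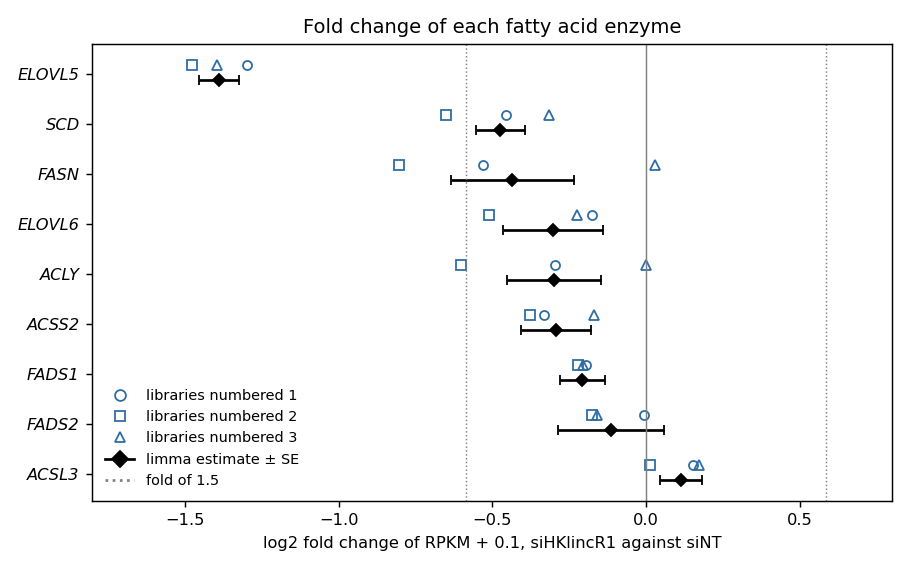
Log2 fold change of RPKM + 0.1, siHKlincR1 against siNT, for the 9 enzymes. Open symbols are the ratios of same-numbered libraries, diamonds are limma estimates ± SE, and dotted lines mark a fold of 1.5. ELOVL5 lies beyond the line at -1.39 with all 3 ratios, whereas for FASN and ACLY the ratio of the libraries numbered 3 lies at 0.03 and -0.0012.

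Among the enzymes that supply acetyl-CoA, ACSS2 (ENSG00000131069, chromosome 20, 33459949 to 33515765, plus strand, GRCh37) was 9.37, 9.13 and 7.29 RPKM in siNT and 7.42, 7.0 and 6.47 RPKM in siHKlincR1. The third siNT library lay within the siHKlincR1 range, so the groups overlapped, while all 3 ratios of same-numbered libraries were below 0 (-0.33, -0.38 and -0.17 on the log2 scale). Their difference was -0.29 on the log2 scale (SE 0.113, limma Benjamini-Hochberg adjusted p = 0.288, and 0.0834 with the replicate block).

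ACLY (ENSG00000131473, chromosome 17, 40023170 to 40086795, minus strand) was 118, 123 and 128 RPKM in siNT and 95.7, 81.3 and 128 RPKM in siHKlincR1. The libraries of replicates 1 and 2 were below all siNT libraries, and that of replicate 3 was at the siNT level. This log2 fold change of -0.30 (SE 0.154) did not pass the test (limma Benjamini-Hochberg adjusted p = 0.366). Without siHKlincR1 replicate 3 it was -0.48 (limma Benjamini-Hochberg adjusted p = 0.0342), still a fold under 1.5.

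FASN (ENSG00000169710, chromosome 17, 80036214 to 80056170, minus strand), the multifunctional enzyme that assembles palmitate, was 150, 151 and 155 RPKM in siNT and 104, 86.7 and 159 RPKM in siHKlincR1. The siHKlincR1 library of replicate 3 was the highest of all 6, and the other two were below every siNT library. The SD was 2.76 RPKM in siNT and 37.5 RPKM in siHKlincR1. On the log2 scale the fold change was -0.44 (SE 0.201, limma Benjamini-Hochberg adjusted p = 0.332). Without siHKlincR1 replicate 3 it was -0.68 and FASN was called (limma Benjamini-Hochberg adjusted p = 0.0259), as were 2.03% of all tested genes in the lower direction. One library thus decided whether 1 or 2 of the 9 enzymes were called.

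SCD (ENSG00000099194, chromosome 10, 102106990 to 102124583, plus strand), which makes monounsaturated fatty acids, was 178, 180 and 165 RPKM in siNT and 129, 114 and 133 RPKM in siHKlincR1. The groups did not overlap, and all 3 ratios of same-numbered libraries were below 0 (-0.46, -0.65 and -0.31 on the log2 scale). Its mean differed by -27.9%, a log2 fold change of -0.47 (SE 0.0786, limma Benjamini-Hochberg adjusted p = 0.0760). The adjusted p was 0.0475 in limma with the replicate block and 0.0345 in limma after voom on the reads worked back, but the fold stayed under 1.5 in both, and SCD was not called under any alternative.

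ELOVL6 (ENSG00000170522, chromosome 4, 110967002 to 111120355, minus strand), which lengthens palmitate and other saturated chains, was 7.95, 8.49 and 10.4 RPKM in siNT and 7.03, 5.93 and 8.88 RPKM in siHKlincR1. The library of replicate 3 was the highest of its group in both, the groups overlapped, and all 3 ratios of same-numbered libraries were below 0 (-0.18, -0.51 and -0.23). The log2 fold change was -0.30 (SE 0.164, limma Benjamini-Hochberg adjusted p = 0.386, and 0.111 with the replicate block), and without siHKlincR1 replicate 3 it was -0.45 (limma Benjamini-Hochberg adjusted p = 0.0914).

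ELOVL5 (ENSG00000012660, chromosome 6, 53132196 to 53213977, minus strand) was 41.4, 41.9 and 41.7 RPKM in siNT and 16.8, 15 and 15.8 RPKM in siHKlincR1. Behind these values were 4401 to 5401 reads in siNT and 1830 to 2019 reads in siHKlincR1. The 6 libraries formed 2 narrow groups far apart, and the mean fell by 61.9%. The log2 fold change was -1.39 (SE 0.0652, limma Benjamini-Hochberg adjusted p = 0.000776), with ratios of same-numbered libraries of -1.30, -1.48 and -1.39. Unlike in FASN and ACLY, the third siHKlincR1 library did not stand apart, and without it the value was -1.39 (limma Benjamini-Hochberg adjusted p = 0.00249). ELOVL5 was called under all 19 alternatives, with a range of -1.44 to -1.34.

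The level of ELOVL5 was also set against the other enzymes within each library, as its log2 level minus that of each. All 8 of these differences separated the groups, with shifts from siNT to siHKlincR1 of -0.92 against SCD to -1.501 against ACSL3. The 8 share the same ELOVL5 values, and ELOVL5 was picked as the enzyme that fell most. They therefore restate its fall and are not further support for it. Each difference gave p = 0.1 in an exact two-sided permutation test, also after Benjamini-Hochberg adjustment over the 8, which are not independent. The smallest p that 3 libraries against 3 allow is 0.1. ELOVL5 ranked 4th of the 9 in siNT, above ACSL3 in every library, and was below ACSL3 in every siHKlincR1 library.

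The siRNA used for sequencing was compared with the 3′ untranslated regions (3′ UTRs), because an siRNA guide strand can bind other transcripts through its seed, as a miRNA does. The guide is the strand complementary to the sense strand given in the labels, and its seed (positions 2 to 8 from the 5′ end) is in capitals. In the sites below, each with 9 bases on either side in the direction of the transcript on GRCh37, capitals mark the bases that pair with the seed.
siHKlincR1_2 guide: aAGCACACgaguauacuuc
ELOVL5 site 1: cattcaataGTGTGCTgtcaaagtg
ELOVL5 site 2: gctgtcaaaGTGTGCTtagctcacc
SCD site: ctttgggggGTGTGCTgacaactta
The ELOVL5 sites lie at chr6:53132281-53132287 and chr6:53132268-53132274 on the minus strand, in the 3′ UTR of transcript ENST00000304434. They start 13 nt apart, at positions 1638 and 1651 of the 1723 nt 3′ UTR. The second also pairs with guide position 1. The SCD site lies at chr10:102123602-102123608 on the plus strand, at position 2912 of the 3893 nt 3′ UTR of ENST00000370355. The 3′ UTRs of the other 7 enzymes, from 745 nt in ACSS2 to 5492 nt in ELOVL6, held 0 copies of GTGTGCT.

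Of 10764 tested genes with a 3′ UTR of at least 30 nt, 1.98% held 2 or more copies of the site, as ELOVL5 does, and 12.1% held 1, as SCD does. The median log2 fold change was -0.083 over genes with 2 or more copies, -0.075 over those with 1 and -0.0057 over those with none. Lower calls were made for 15 of the 213 genes with 2 or more copies (7.04%), ELOVL5 among them, for 26 of the 1299 with 1 (2%) and for 11 of the 9252 with none (0.119%). Together 41 of these lower calls held a copy and 11 did not. A match of letters is a description, and whether the siRNA acts on ELOVL5 or SCD through these sites was not tested.

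**Figure D3:**
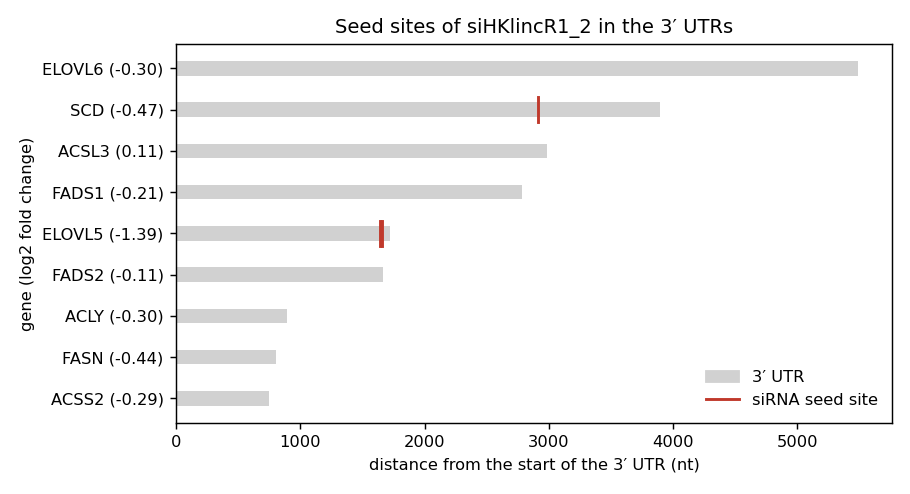
The 3′ UTR of each enzyme drawn to scale in nt from its start (grey), with copies of the seed site of siHKlincR1_2 (red) and the log2 fold change of the gene in brackets. ELOVL5 has 2 copies close together near the end of its 3′ UTR, SCD has 1, and the other 7 have 0.

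The front-end desaturases act with ELOVL5 in making long polyunsaturated chains. FADS1 (ENSG00000149485, chromosome 11, 61567099 to 61596790, minus strand) was 18.1, 18.5 and 20.1 RPKM in siNT and 15.8, 15.9 and 17.4 RPKM in siHKlincR1. The groups did not overlap and the 3 ratios of same-numbered libraries were alike (-0.20, -0.22 and -0.20). The log2 fold change was small, at -0.21 (SE 0.0741, limma Benjamini-Hochberg adjusted p = 0.265).

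FADS2 (ENSG00000134824, chromosome 11, 61560452 to 61634826, plus strand) was 1.03, 1.02 and 1.32 RPKM in siNT and 1.03, 0.887 and 1.17 RPKM in siHKlincR1. The groups overlapped, and the log2 fold change was -0.11 (SE 0.173, limma Benjamini-Hochberg adjusted p = 0.754). In GENCODE v44, exons of FADS1 and FADS2 overlap on opposite strands, and those of FADS2 also overlap FEN1 on its own strand. The reads were counted on Ensembl v74 models, whose overlaps were not examined. FEN1, a nuclease of DNA replication, was 36.4 to 46.6 RPKM in siNT and 19.8 to 36.8 RPKM in siHKlincR1. The strand setting of the counting is not given in the sources used here, and no strand setting separates reads in exons that FADS2 and FEN1 share. The values of FADS1 and FADS2 are therefore uncertain.

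ACSL3 (ENSG00000123983, chromosome 2, 223725660 to 223809357, plus strand), which activates fatty acids at the endoplasmic reticulum and on lipid droplets, was the 1 enzyme with a value above 0. It was 31.8, 34.1 and 30.04 RPKM in siNT and 35.3, 34.4 and 33.9 RPKM in siHKlincR1. The second siNT library lay above the lowest siHKlincR1 library. On the log2 scale the fold change was 0.11 (SE 0.0683, limma Benjamini-Hochberg adjusted p = 0.436).

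Averaged over the 9 genes as centred log2 values, the siNT libraries were at 0.16, 0.19 and 0.22 and the siHKlincR1 libraries at -0.19, -0.34 and -0.04. Without ELOVL5 the same means were 0.095, 0.13 and 0.16 in siNT and -0.14, -0.29 and 0.046 in siHKlincR1. The second siHKlincR1 library was the lowest and the third the highest of its group on both scales. Among the 7754 genes that averaged 5 RPKM or more, 627 followed the mean of the 9 genes with a Pearson correlation over 0.9 over the 6 libraries, which share their depth and groups. The 5 closest were OAS3, NXT2, NLGN2 and MAGT1 (0.998 each) and GYS1 (0.997).

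The promoters of the enzymes were read for motifs of lipogenic control, from 250 bases before to 50 after the RefSeq start on GRCh38.p14. They are shown for the enzyme that was called and for SCD, the next by size, with matches to CCAAT on either strand in capitals (ATTGG is CCAAT on the other strand).
ELOVL5 promoter, chr6:53348901-53349200, minus strand: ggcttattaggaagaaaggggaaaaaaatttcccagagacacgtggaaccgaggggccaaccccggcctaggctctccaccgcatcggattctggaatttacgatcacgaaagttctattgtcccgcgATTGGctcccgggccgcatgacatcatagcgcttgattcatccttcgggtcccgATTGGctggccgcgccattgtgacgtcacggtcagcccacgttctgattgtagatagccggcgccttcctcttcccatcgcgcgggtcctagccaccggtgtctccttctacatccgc
SCD promoter, chr10:100346983-100347282, plus strand: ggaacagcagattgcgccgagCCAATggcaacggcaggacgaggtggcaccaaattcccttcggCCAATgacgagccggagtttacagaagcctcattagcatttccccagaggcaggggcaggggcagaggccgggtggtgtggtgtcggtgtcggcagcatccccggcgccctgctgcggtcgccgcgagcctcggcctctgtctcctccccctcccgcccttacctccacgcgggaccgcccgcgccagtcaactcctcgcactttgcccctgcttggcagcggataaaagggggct
RefSeq promoters were matched for 8 of the 9 enzymes (not FASN). CCAAT, the box bound by NF-Y, a partner of SREBP, was present in 5 of the 8 (ACLY, SCD, ELOVL5, ACSS2 and ACSL3), beside 35.7% of all 27305 promoters and 37.1% of those of tested genes. ACLY, SCD and ELOVL5 held 2 copies, as 11.3% of all promoters did. GGGCGG, the GC box, was present in 6 of the 8 (ACLY, SCD, ELOVL6, FADS1, ACSS2 and ACSL3), beside 44.6% of all promoters and 71.4% of the 9392 promoters of tested genes. CACGTG, the E-box, was present in ELOVL5 alone among the 8, beside 7.43% of all and 10.4% of tested promoters. TCACNCCAC, an SREBP site, was in 0 of the 8, beside 1.15% and 1.06%. The same search found a copy in the promoter of SREBF2 but none in those of SREBF1 and of INSIG1, itself an SREBP target. It covered a single start per gene and a single spelling of the site, so a lack of matches does not show a lack of SREBP control. SREBP binding was not tested. Each motif was searched on both strands, and none of the 4 contains another.

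The rest of the lipid network was followed in 10 lists of 180 symbols, of which 153 genes were tested. None of them was called by limma without the replicate block. At an unadjusted p under 0.05 there were 39 lower, where 9.19% of all tested genes were, and 6 higher, where 7.04% were. Of the 39, 18 were among the 22 tested genes of cholesterol synthesis. Limma after voom called 1 lower, MBOAT2, beside 87 of all tested genes. SREBF1, which encodes the SREBP that favours fatty acid genes, was 28.6, 27.6 and 24.5 RPKM in siNT and 27.7, 27.7 and 24.2 RPKM in siHKlincR1. Its log2 fold change was -0.02 (limma Benjamini-Hochberg adjusted p = 0.930), and it changed sign under some alternatives. SREBF2, which encodes the SREBP that favours cholesterol genes, was 24.9, 24.6 and 23.6 RPKM in siNT and 21.2, 20.5 and 18.4 RPKM in siHKlincR1, without overlap (-0.28, limma Benjamini-Hochberg adjusted p = 0.182). SCAP, the escort of both, was at -0.13 (limma Benjamini-Hochberg adjusted p = 0.418). INSIG1, which holds SCAP in the endoplasmic reticulum and is itself an SREBP target, was 56.3, 52.8 and 51.3 RPKM in siNT and 31.2, 22.5 and 43.4 RPKM in siHKlincR1. As in FASN, its siHKlincR1 library of replicate 3 was nearest to siNT. The value was -0.77 (limma Benjamini-Hochberg adjusted p = 0.199), and without that library it was -1.01 and called (limma Benjamini-Hochberg adjusted p = 0.0274), where 2.03% of all tested genes were called lower. Over the 23 tested genes of SREBP and lipogenic control, 15 were below 0 and 8 above, with a median of -0.02. INSIG2, the homologue of INSIG1, was at -0.36.

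Among the 9 tested genes that act beside ELOVL5 and ELOVL6 in elongation, 8 were below 0 and the median was -0.16. The elongase ELOVL7, at -0.40, and the dehydratase HACD2, at -0.35, were the most shifted of those above 1 RPKM. The other elongases ELOVL1 (-0.08), ELOVL2 (-0.23) and ELOVL4 (0.11) had overlapping groups. Among 8 other desaturases and their electron donors, 7 were below 0, with a median of -0.25. SCD5, the second stearoyl-CoA desaturase, was 2.34, 2.69 and 3.37 RPKM in siNT and 1.53, 1.497 and 2.44 RPKM in siHKlincR1. Its value was -0.61 (limma Benjamini-Hochberg adjusted p = 0.263), and without siHKlincR1 replicate 3 it was -0.83 and called (limma Benjamini-Hochberg adjusted p = 0.0387), where 2.03% of all tested genes were called lower. CYB5B, of the same list, was at -0.28.

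Of 10 other acyl-CoA synthetases and uptake genes, 6 were below 0, with a median of -0.09. ACSL4, which prefers arachidonate, was 61.1, 63.1 and 60.5 RPKM in siNT and 49.7, 47.1 and 53.2 RPKM in siHKlincR1, and ACSL1 was at -0.29. ACSL4 thus lay lower in every siHKlincR1 library (-0.30, limma Benjamini-Hochberg adjusted p = 0.140), where ACSL3 was at 0.11.

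Upstream of the pathway, 10 of 15 genes that supply acetyl-CoA, citrate and NADPH were above 0, with a median of 0.05. PC, pyruvate carboxylase, was at -0.27 and PGLS, of the pentose phosphate pathway, at 0.22. Of 11 partners of acetyl-CoA carboxylase and AMPK genes, 8 were above 0 (median 0.09). TRIB3, a stress-induced pseudokinase that can bring acetyl-CoA carboxylase to degradation, was 53.7, 51.7 and 30.1 RPKM in siNT and 80.4, 83.6 and 47.6 RPKM in siHKlincR1. Both replicate 3 libraries were the lowest of their group, and the value of 0.64 was called higher with the replicate block (limma Benjamini-Hochberg adjusted p = 0.0138) but not without (limma Benjamini-Hochberg adjusted p = 0.320). The blocked fit called 0.511% of all tested genes higher. The blocked call was lost without pair 2 (limma Benjamini-Hochberg adjusted p = 0.0546). The mitochondrial route of fatty acid synthesis, which serves lipoate, had 7 of 10 genes above 0 and a median of 0.12, with LIPT1 at 0.42 and HSD17B8 at 0.37.

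Downstream, 13 of 19 genes of glycerolipid synthesis and storage were below 0, with a median of -0.18. MBOAT2, a lysophospholipid acyltransferase, was 2.60, 2.58 and 2.68 RPKM in siNT and 1.33, 1.01 and 1.77 RPKM in siHKlincR1. The groups lay apart, and the value was -0.92 (limma Benjamini-Hochberg adjusted p = 0.1201), or -1.11 and called without siHKlincR1 replicate 3 (limma Benjamini-Hochberg adjusted p = 0.0258). MBOAT7, which handles arachidonate in phosphatidylinositol, was at -0.44, or -0.59 and called without that library (limma Benjamini-Hochberg adjusted p = 0.0393). The fit without that library called 2.03% of all tested genes lower. Fatty acid oxidation was close to even, with 14 of 26 genes below 0 and a median of -0.04. The peroxisomal oxidase ACOX2 was at -0.61 (limma Benjamini-Hochberg adjusted p = 0.118) and CPT1A, the gate of mitochondrial oxidation, at -0.24.

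Cholesterol synthesis had the lowest median of the 10 lists, -0.56, with 21 of 22 genes below 0. Every siHKlincR1 library lay below every siNT library for 18 of the 22, beside 11.9% of all tested genes. None was called with all 6 libraries and no replicate block. The unblocked fit without siHKlincR1 replicate 3 is given only for the 3 cholesterol genes that the replicate block called. It called SQLE (-0.79, limma Benjamini-Hochberg adjusted p = 0.0351) and NSDHL (-0.84, limma Benjamini-Hochberg adjusted p = 0.0306). HSD17B7 was not called (-0.78, limma Benjamini-Hochberg adjusted p = 0.0541). That fit called 2.03% of all tested genes lower, and its calls in the rest of the list are not given here. With the replicate block 3 were called lower, where 0.809% of all tested genes were. The 3 were SQLE (-0.63, limma Benjamini-Hochberg adjusted p = 0.0467), NSDHL (-0.63, limma Benjamini-Hochberg adjusted p = 0.0467) and HSD17B7 (-0.65, limma Benjamini-Hochberg adjusted p = 0.0444). These blocked calls were lost when single pairs were left out, in limma fits with Benjamini-Hochberg adjustment chosen after seeing the data. Without pairs 1, 2 and 3 in turn the adjusted p was 0.0501, 0.0794 and 0.0553 for SQLE and 0.117, 0.123 and 0.0573 for HSD17B7. For NSDHL it was 0.0691 and 0.0893 without pairs 1 and 2, and the call held without pair 3 at 0.0481. Among the 9 fatty acid enzymes the replicate block changed no call.

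**Figure D4:**
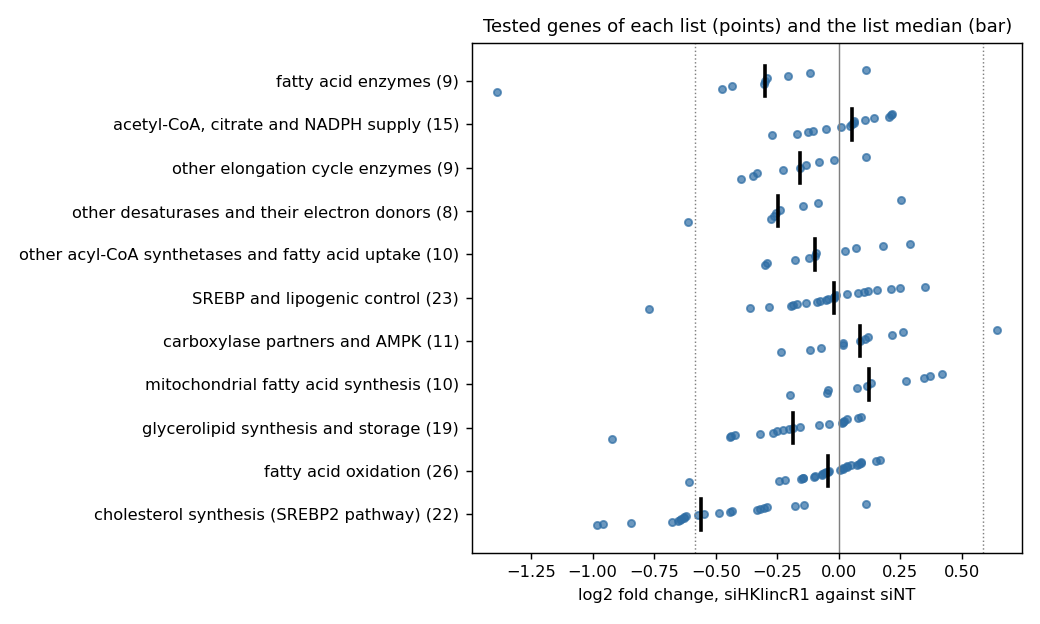
Log2 fold change, siHKlincR1 against siNT, of each tested gene of the fatty acid enzymes and 10 related lists (points), with the number of tested genes in brackets, the list median (bar) and a fold of 1.5 (dotted lines). ELOVL5, at -1.39, is the leftmost point of all, and the medians run from -0.56 for cholesterol synthesis to 0.12 for mitochondrial fatty acid synthesis.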

How the data were processed

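PolyA RNA of 6 H460 samples, 3 siNT and 3 siHKlincR1, was sequenced as strand-specific paired-end libraries. Per the paper's methods and the submitters' processing notes, the authors used CASAVA 1.8.2, counted reads on Ensembl v74 gene models (hg19/GRCh37) with featureCounts from Rsubread, tested counts with edgeR, and deposited RPKM values per gene, with replicates kept separate. The aligner and the strand setting are not given in the sources used here.

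The deposited RPKM were not rounded, so library totals and reads per gene were worked back from them (tolerance 0.0001 reads, 0 genes failed). log2(RPKM + 0.1) was fitted with limma 3.58.1 in R 4.3.3 (lmFit, eBayes with trend) for the 15451 genes averaging 0.5 RPKM or more, with Benjamini-Hochberg adjustment over all of them. Fold changes are on this scale and understate the change of low genes. For single values, exact two-sided permutation tests were used. The scripts were tested on simulated data. Deviations of same-numbered libraries from their group means correlated at 0.142, 0.137 and 0.266. Pairs with unlike numbers ran from -0.209 to 0.113, the highest being siNT replicate 1 with siHKlincR1 replicate 2. Deviations within a group sum to 0, so these values depend on each other, and whether the numbers mark true pairs was not tested. The replicate numbers in the labels were taken as pairs in the blocked fit.

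The members, lists and tests were chosen with earlier results of these data known. Genes named are the enzymes, HKlincR1, SREBF1, SREBF2, SCAP, INSIG1, every gene called in a related list without or with the block and otherwise its 2 most shifted tested genes of at least 1 RPKM, and the 5 genes most correlated with the enzymes' mean. ELOVL1, ELOVL2, ELOVL4 and FEN1 were added after their values were seen. Of 201 list symbols, 199 were matched through GENCODE v44 on GRCh37 (not ACACA and PECAM1). Canonical transcripts of that annotation gave the 3′ UTRs. Alternatives changed the pseudocount, filter, scaling, variance model, threshold and block, used voom on the worked-back reads, and left out each library in turn.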

Additional observations from a re-analysis of the deposited data

How the results depend on the processing

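ELOVL5 stayed called, and SCD, ELOVL6, FADS1, FADS2, ACSS2, ACLY and ACSL3 kept their direction and stayed uncalled, under all 19 alternatives run for each. The 1 enzyme called lower became 1 to 2 when single libraries were left out. FASN was the second, without siHKlincR1 replicate 3 (-0.68) and, in a fit chosen after seeing the data, with the replicate block without pair 3 (2 called, FASN -0.67, limma Benjamini-Hochberg adjusted p = 0.0481). The median log2 fold change of the enzymes, -0.30, was -0.27 with a pseudocount of 1, and in fits chosen after seeing the data -0.20 with the replicate block without pair 2 and -0.36 without pair 3. Leaving out single libraries gave -0.45 to -0.19. SREBF1, at -0.02, was 0.0035 with quantile normalization and -0.084 to 0.046 with single libraries left out (0.0014, 0.028 and 0.046 above 0). Over all genes, 55 lower calls became 125 with the replicate block, 34 with no filter, 16 with no trend, 87 with voom, 24 and 183 with the block without pairs 2 and 3, and 7 to 314 with single libraries left out. The 1 higher call became 79 with the block, 56, 14 and 122 with the block without pairs 1, 2 and 3, 0 with a pseudocount of 0.01, 12 with no filter, 2 with median scaling, voom or adjusted p alone, and 0 to 204 with single libraries left out. The cause was not tested. Among the 33 single genes followed, the replicate block changed no call other than those of TRIB3, SQLE, NSDHL and HSD17B7. GYS1, named for its correlation and not among the 33, was at -0.79. Its limma Benjamini-Hochberg adjusted p was 0.0780 without the block and 0.0441 with it, so it was called lower only with the block. The blocked fit called 0.809% of all tested genes lower. Of the alternatives of the 33 single genes followed, 605 kept the call and direction, 18 gained a call and 4 changed sign, all of SREBF1. With 3 libraries a group no exact p under 0.1 was possible, and FADS2, at 283 to 387 reads, had the lowest depth of the enzymes.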
